A study of Mus musculus with 8 samples.

Results

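The set described here held 37 mouse genes of glucose breakdown and of the cellular response to low oxygen, out of 24888 genes counted in 8 RNA sequencing libraries. Members were picked by gene symbol. They comprised 16 glycolytic enzymes, 6 glycolytic switches and transporters, 7 regulators of hypoxia-inducible factor (HIF), and 8 hypoxia targets that are not enzymes of glucose breakdown. All 37 symbols were in the count table and 36 had counts. The exception, Eno1 (enolase), was listed at 0 in all 8 libraries, while Eno1b, a near-identical retrogene copy, had 247 to 559 CPM, the read count scaled to a common library total. The part of that copy in the 0 of Eno1 was not tested, so Eno1 has no value here. Gapdh, Ldha, Tpi1 and other enzymes have processed pseudogenes in the mouse genome, and how reads shared with such copies were counted is not given in the sources used here.

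Each of the 8 groups was 1 library, and all of them came from the E14 mouse embryonic stem cell (ESC) line. The first 4 libraries were T09-treated expanded potential stem cells (EPSC), untreated EPSC, T09-treated ESC and untreated ESC. T09 stands for T0901317, a compound that activates the liver X receptors (LXR), and was given for 3 days at a dose that the labels write as 1 uM/mL. EPSC are ESC passaged 5 times in another medium, and the labels give both media. EPSC medium held knockout serum replacement, LIF, the GSK3 inhibitor CHIR99021, the MEK inhibitor PD0325901 and 4 further inhibitors, JNK Inhibitor VIII, SB203580, A-419259 and XAV939. ESC medium held serum in place of the replacement and lacked these 4. The other 4 libraries were blastoids, which are aggregates of EPSC that model the blastocyst. Day 2 blastoids were harvested 48 hours after transfection with an siRNA against Nr1h2, the gene of LXR beta (siNr1h2), or with a non-targeting siRNA (siNT). The day 5 blastoids, Type I and Type III, were collected manually and are both labelled as coming from T09-treated EPSC. No oxygen level is named in the labels for any group.

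Glycolysis splits glucose into pyruvate, and lactate dehydrogenase turns pyruvate into lactate. Naive and primed pluripotent cells, and the lineages of the blastocyst, are known to differ in how far they rely on it. HIF is a pair of proteins, an alpha subunit (Hif1a or Epas1, which encodes HIF-2 alpha) and a beta subunit (Arnt). With oxygen present, prolyl hydroxylases (Egln1, Egln2 and Egln3) mark the alpha subunit, and Vhl then directs its destruction. In low oxygen the alpha subunit persists and, with Arnt, binds the short DNA sequence ACGTG near its targets. These targets include most glycolytic enzymes, glucose and lactate transporters, and genes of mitophagy, blood vessel growth and acid balance. The level of Hif1a mRNA is therefore not a readout of HIF activity.

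Promoter windows of 300 bases, from 250 before to 50 after an annotated transcription start, were taken from RefSeq on build GRCm38.p6 and found for 33 of the 37 members. Slc2a3, Epas1, Ndrg1 and Ndufa4l2 were not matched. ACGTG was searched on both strands, so that it also reads as CACGT, and the palindrome CACGTG counts as 2 overlapping matches. At least 1 window held the motif in 21 of the 33 members (63.6%), against 5886 of 27025 genes in all (21.8%). By window rather than by gene, 25 of 49 member windows (51.0%) held it, against 19.6% of all windows of that length. Among the matched members with the motif were 5 of 6 non-metabolic targets, 4 of 6 HIF regulators, 9 of 16 enzymes and 3 of 5 switches and transporters. Known HIF targets were among the members chosen, so the higher share is not independent evidence about them. A match to 5 letters is not a binding site, and HIF binding was not measured.

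The promoters of 5 members are printed because these genes carry the main differences below. Ldha makes the lactate-forming subunit of lactate dehydrogenase, Slc16a3 exports lactate and Bnip3 marks mitochondria for removal. Between EPSC and ESC and in blastoids over EPSC, Tpi1 (triose phosphate isomerase) moved with Ldha. Ldhb, the other lactate dehydrogenase subunit, moved the opposite way there, but Ldha, Tpi1 and Ldhb all rose at day 5 over day 2. Capitals mark ACGTG or CACGT, and each sequence runs 5′ to 3′ on the strand of the gene. Ldha had 2 windows, and the one printed was picked for having the most matches, while the other genes had 1 window each. The printed Ldha window (chr7:46845554-46845853, plus strand) held 5 matches, that of Slc16a3 (chr11:120948817-120949116, plus strand) 2, and that of Bnip3 (chr7:138909457-138909756, minus strand) 2. The windows of Tpi1 (chr6:124814109-124814408, minus strand) and Ldhb (chr6:142507908-142508207, minus strand) held 0.
Ldha: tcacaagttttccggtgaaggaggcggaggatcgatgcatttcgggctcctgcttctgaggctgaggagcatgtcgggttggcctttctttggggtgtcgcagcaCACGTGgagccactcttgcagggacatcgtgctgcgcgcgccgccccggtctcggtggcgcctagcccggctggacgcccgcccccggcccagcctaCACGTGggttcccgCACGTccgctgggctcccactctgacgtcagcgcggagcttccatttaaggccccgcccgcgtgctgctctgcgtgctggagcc
Slc16a3: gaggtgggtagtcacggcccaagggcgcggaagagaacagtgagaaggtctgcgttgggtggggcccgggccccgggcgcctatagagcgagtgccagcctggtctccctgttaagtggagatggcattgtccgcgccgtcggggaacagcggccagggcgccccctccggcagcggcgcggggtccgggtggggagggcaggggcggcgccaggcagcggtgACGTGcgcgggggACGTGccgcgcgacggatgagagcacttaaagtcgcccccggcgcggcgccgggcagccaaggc
Bnip3: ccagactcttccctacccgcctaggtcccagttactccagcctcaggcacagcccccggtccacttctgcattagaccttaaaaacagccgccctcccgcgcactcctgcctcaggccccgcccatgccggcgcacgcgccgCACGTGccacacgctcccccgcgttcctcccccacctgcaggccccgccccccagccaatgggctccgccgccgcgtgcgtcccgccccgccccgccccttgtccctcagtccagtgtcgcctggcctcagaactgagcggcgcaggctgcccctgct
Tpi1: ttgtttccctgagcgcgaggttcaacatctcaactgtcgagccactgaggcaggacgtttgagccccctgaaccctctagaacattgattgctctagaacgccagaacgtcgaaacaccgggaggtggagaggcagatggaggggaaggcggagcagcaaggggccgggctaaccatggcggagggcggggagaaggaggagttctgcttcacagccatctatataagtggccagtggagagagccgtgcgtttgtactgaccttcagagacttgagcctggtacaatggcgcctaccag
Ldhb: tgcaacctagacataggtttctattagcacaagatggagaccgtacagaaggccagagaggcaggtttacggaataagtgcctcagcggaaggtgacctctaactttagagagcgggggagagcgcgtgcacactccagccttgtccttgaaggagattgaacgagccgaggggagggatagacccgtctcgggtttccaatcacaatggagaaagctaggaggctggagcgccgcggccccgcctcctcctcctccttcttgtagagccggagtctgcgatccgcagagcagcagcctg

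Total counts ran from 24666260 to 40781415 per library. With no replicate of any group, 2 libraries could be set side by side only by their ratio, and a difference was counted when it was at least 2-fold, its 95% counting interval excluded a ratio of 1 and 1 library had at least 20 counts. Tests across all genes used edgeR's quasi-likelihood fit, which also pools the spread over genes. In the fit by stage, libraries of a stage that differ in treatment stand in for replicates. In the fit of state plus T09, treatment is modelled, and the only residual is the difference in T09 response between the states. The p-values rest on these spreads and on the pooling, and include no spread between replicate cultures. All 8 pluripotency genes were above 1 CPM in every library, blastoids included, so their presence alone does not tell the labelled types apart. Summed primitive endoderm markers were 138 to 198 CPM in ESC and EPSC, 1088 and 1158 CPM in siNr1h2 and siNT day 2 blastoids, and 5222 and 3531 CPM in Type I and Type III day 5 blastoids. Lama1, at 129 to 160 CPM, made most of the sums in ESC and EPSC, where Sox17 and Foxa2 were below 1 CPM. Fewer cells of a type and less RNA per cell cannot be told apart in such bulk samples.

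Across the 8 libraries, T09-treated EPSC held the lowest value of 14 of the 36 members, while T09-treated ESC and Type III blastoids each held the highest value of 12. The same was not counted over all genes, so these counts have no background to be read against. The 15 counted enzymes together took 1.57% and 1.3% of all counts in T09-treated and untreated ESC, and 0.825% and 0.823% in T09-treated and untreated EPSC. Their share was 0.944% and 1.01% in siNr1h2 and siNT day 2 blastoids, and 1.19% and 1.31% in Type I and Type III day 5 blastoids. Both EPSC libraries thus lay below the 6 others.

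**Figure D1:**
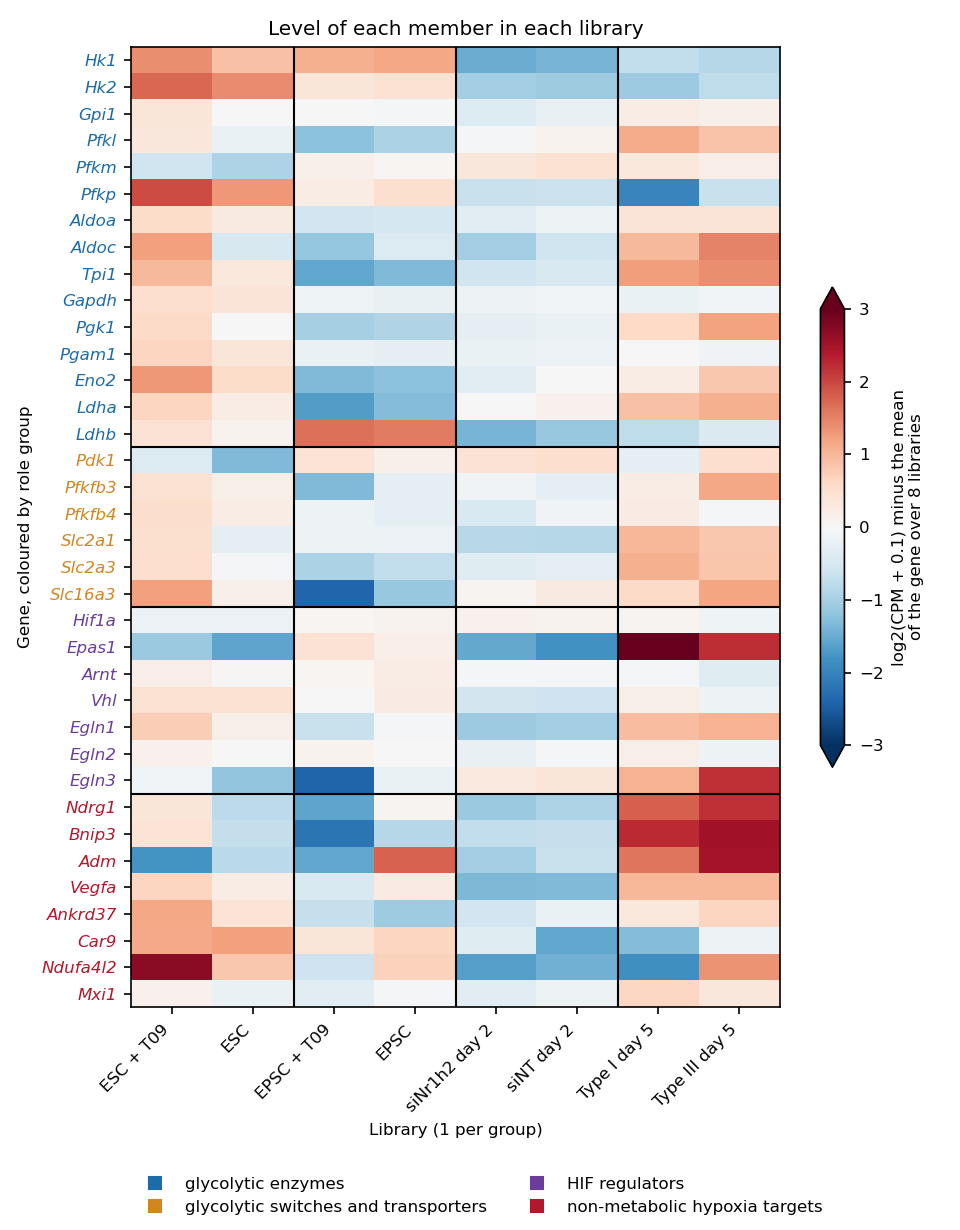
Level of each of the 36 counted members in the 8 libraries, as log2(CPM + 0.1) minus the mean of that gene over the libraries (colour scale from -3 to 3, red above and blue below the mean). Rows are grouped by role. Both EPSC columns are blue for Pfkl, Tpi1, Pgk1, Eno2 and Ldha and red for Ldhb, and the day 5 columns are red for Epas1, Egln3, Ndrg1 and Bnip3.

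The first comparison asked how the set differed between EPSC and ESC. Glycolytic enzymes were lower in EPSC for the most part: of 15 tested, 10 fell, 2 rose (Ldhb and Pfkm) and 3 did not pass. Over all 35 members tested, 16 fell and 4 rose. Among all 14477 genes tested, 14.5% fell and 14.3% rose. The median log2 change was -1.16 over the enzymes, -0.85 over the switches and transporters, -0.02 over the HIF regulators and -0.77 over the targets, beside 0.00 over all genes. These differences between role groups were not tested.

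Among the enzymes, Ldha had 362 and 463 CPM in T09-treated and untreated EPSC, against 1801 and 1349 CPM in T09-treated and untreated ESC. Both EPSC libraries lay below both ESC libraries (log2 change -1.94, SE 0.172, adjusted p = 5.02e-05). Ldhb, whose subunit favours the return of lactate to pyruvate, had 368 and 344 CPM in T09-treated and untreated EPSC, against 156 and 124 CPM in T09-treated and untreated ESC. Its groups were separate in the other direction (log2 change 1.34, SE 0.109, adjusted p = 2.93e-05). Divided by the joined length of a gene's annotated exons, Ldha stood at 0.678 and 0.926 times Ldhb in T09-treated and untreated EPSC. It stood at 7.96 and 7.47 times Ldhb in T09-treated and untreated ESC. Ldhb was thus the less abundant subunit transcript per length in both ESC libraries. In both EPSC libraries these ratios were below 1. In untreated EPSC, however, Ldha was the higher of the pair in CPM, so the order there depends on the lengths used.

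Tpi1, which interconverts the 2 triose phosphates, had 174 and 205 CPM in T09-treated and untreated EPSC, against 1002 and 638 CPM in T09-treated and untreated ESC (log2 change -2.09, SE 0.186, adjusted p = 5.1e-05). Eno2, the neuronal enolase, was the enzyme with the largest fitted fall (log2 change -2.28, SE 0.268, adjusted p = 0.000258), at 2.00 and 2.12 CPM in T09-treated and untreated EPSC, against 12.9 and 7.6 CPM in T09-treated and untreated ESC. Its level was low in every library. Hk2, the inducible hexokinase of the first step, had 372 and 396 CPM in T09-treated and untreated EPSC, against 958 and 774 CPM in T09-treated and untreated ESC (log2 change -1.18, SE 0.124, adjusted p = 0.00014). Hk1, the widely expressed hexokinase, had 133 and 142 CPM in T09-treated and untreated EPSC, against 167 and 117 CPM in T09-treated and untreated ESC, and its EPSC values lay within its ESC values (log2 change -0.03, adjusted p = 0.877). Per length, Hk2 was 2.42 and 2.41 times Hk1 in T09-treated and untreated EPSC, against 4.97 and 5.73 times in T09-treated and untreated ESC. The platelet phosphofructokinase Pfkp had 153 and 183 CPM in T09-treated and untreated EPSC, against 505 and 322 CPM in T09-treated and untreated ESC (log2 change -1.28, SE 0.184, adjusted p = 0.000843). The other enzymes that fell were Pfkl, Aldoa, Pgk1, Pgam1 and Gapdh, with log2 changes of -1.24 for Pgk1 to -0.63 for Gapdh. Gpi1 and Aldoc did not pass. In a one-way fit of the 4 stages, Pfkp lost its call without T09-treated ESC (-0.95), T09-treated EPSC (-1.19) or untreated EPSC (-1.45), and Aldoc gained one without untreated ESC (adjusted p = 0.00473).

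The lactate exporter Slc16a3 showed the steepest fitted fall of any member. It had 15.9 and 37.9 CPM in T09-treated and untreated EPSC, against 197 and 93.1 CPM in T09-treated and untreated ESC (log2 change -2.46, SE 0.429, adjusted p = 0.00251). Both EPSC libraries were lower, and they also differed from each other. The glucose transporter Slc2a3, which per length stood at 3.18 to 8.26 times Slc2a1 over the 8 libraries, had 1160.5 and 1338 CPM in T09-treated and untreated EPSC, against 3177 and 2162 CPM in T09-treated and untreated ESC (log2 change -1.08, SE 0.169, adjusted p = 0.00135). Slc2a1, the other glucose transporter, had 300.3 and 295 CPM in T09-treated and untreated EPSC, against 465 and 272 CPM in T09-treated and untreated ESC and did not pass (log2 change -0.27, adjusted p = 0.24). Pfkfb3, which makes the allosteric activator of phosphofructokinase, had 6.7 and 14.0 CPM in T09-treated and untreated EPSC, against 23.4 and 19.1 CPM in T09-treated and untreated ESC (log2 change -1.13, SE 0.278, adjusted p = 0.0141). Its relative Pfkfb4 stayed between 3.28 and 6.58 CPM over all 8 libraries and did not pass. Pdk1, the kinase that holds pyruvate back from the mitochondria by switching off pyruvate dehydrogenase, had 218 and 182 CPM in T09-treated and untreated EPSC, against 125 and 65.9 CPM in T09-treated and untreated ESC and rose (log2 change 1.12, SE 0.15, adjusted p = 0.00056). The calls of Slc16a3 and Slc2a3 were lost with DESeq2 (adjusted p = 0.0582 and 0.163). In the one-way fit of 4 stages Pfkfb3 did not pass, at -1.05 with all libraries and at -0.90, -1.19 and -0.62 without T09-treated ESC, untreated ESC and T09-treated EPSC in turn, and Pdk1 lost its call without untreated ESC (0.67) or T09-treated EPSC (0.92). There, Slc2a1 gained a call without untreated ESC (-0.66).

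Of the 7 HIF regulators 1 rose, 1 fell and 5 did not pass. Epas1 had 51.4 and 43.3 CPM in T09-treated and untreated EPSC, against 17.4 and 12.6 CPM in T09-treated and untreated ESC and rose (log2 change 1.66, SE 0.14, adjusted p = 3.84e-05). Egln1, the prolyl hydroxylase with the main part in setting HIF levels, had 32.5 and 49.6 CPM in T09-treated and untreated EPSC, against 86.6 and 59.0 CPM in T09-treated and untreated ESC and fell (log2 change -0.84, SE 0.227, adjusted p = 0.0211). Hif1a had 181 and 187 CPM in T09-treated and untreated EPSC, against 155 and 153 CPM in T09-treated and untreated ESC (log2 change 0.24, adjusted p = 0.102). Arnt, Vhl and Egln2 had log2 changes of 0.02, -0.35 and -0.02. Egln3, the hydroxylase that is itself strongly induced by HIF, had 2.00 and 9.45 CPM in T09-treated and untreated EPSC, against 10.4 and 4.79 CPM in T09-treated and untreated ESC. Its EPSC values lay on both sides of one of its ESC values (log2 change -0.65, adjusted p = 0.483).

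All 7 non-metabolic targets tested had a log2 change below 0 and 2 of them fell. Ankrd37, a small HIF target of ankyrin repeats, had 3.04 and 2.33 CPM in T09-treated and untreated EPSC, against 11.4 and 6.66 CPM in T09-treated and untreated ESC (log2 change -1.73, SE 0.233, adjusted p = 0.000597). Bnip3 had 12.1 and 30.8 CPM in T09-treated and untreated EPSC, against 74.4 and 34.2 CPM in T09-treated and untreated ESC (log2 change -1.39, SE 0.454, adjusted p = 0.0462), and the untreated libraries lay closer together than the treated ones. Ndrg1, Vegfa (the blood vessel growth factor), Ndufa4l2 (a respiratory chain subunit made in low oxygen), Car9 (an acid-balancing carbonic anhydrase) and Mxi1 (an antagonist of Myc) had log2 changes of -0.55, -0.55, -1.75, -0.77 and -0.17 and did not pass. Car9 was at most 1.12 CPM in any library, and Adm, a vasodilating peptide, at most 2.37 CPM. In the one-way fit, the calls of Bnip3 and Egln1 were lost without T09-treated ESC (-0.69 and -0.54) or T09-treated EPSC (-0.84 and -0.57), and with DESeq2 (-1.40 and -0.85). Without untreated EPSC, Egln3 (-1.93), Ndrg1 (-1.51) and Vegfa (-0.91) passed, whereas without T09-treated ESC or T09-treated EPSC the changes of Egln3 (0.24 and 0.30) and Ndrg1 (0.23 and 0.16) were above 0 and did not pass.

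**Figure D2:**
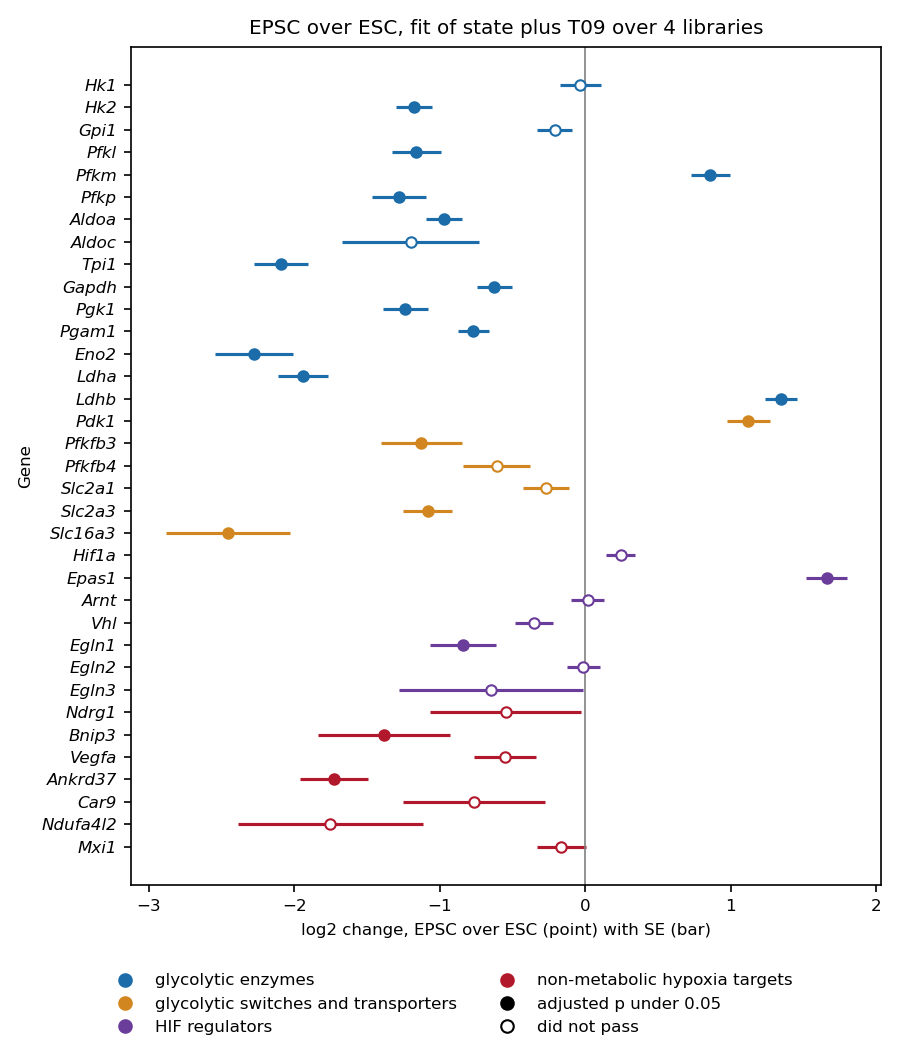
Fitted log2 change of EPSC over ESC for the 35 members tested, by role, with bars of 1 SE. Filled points passed at an adjusted p of 0.05. Enzymes lie mostly below 0, HIF regulators scatter about 0, and Slc16a3 (-2.46) and Epas1 (1.66) are the lowest and highest points.

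The 2 library pairs behind this fit differed in size. Between T09-treated EPSC and T09-treated ESC, 19 of 35 members were past 2-fold lower and 2 higher, where 9.79% of 13712 genes were lower and 8.35% higher. Between untreated EPSC and untreated ESC, 5 of 36 were lower and 4 higher, where 8.05% of 13847 genes were lower and 9.58% higher. Those past 2-fold in the untreated pair were Tpi1, Eno2, Ldha, Slc16a3 and Ankrd37, all lower, and Ldhb, Pdk1, Epas1 and Adm, all higher. The medians of the targets were -1.88 in the treated pair and -0.05 in the untreated pair. Egln3 had log2 ratios of -2.34 and 0.97 in the treated and untreated pairs, and Ndrg1 of -1.95 and 0.85. Cell type markers differed as well. Of the pluripotency markers 6 of 8 tested were lower in EPSC and 0 higher, with sums of 5260.4 and 4892 CPM in T09-treated and untreated EPSC, against 7820.5 and 7696 CPM in T09-treated and untreated ESC. Of the primitive endoderm markers 4 of 7 tested were higher and 0 lower, and of the trophectoderm markers 2 of 7 were higher and 5 lower. The mesoderm list summed to 2.57 and 1.36 CPM in T09-treated and untreated EPSC, against 113 and 90.4 CPM in T09-treated and untreated ESC, and Cdx1 alone made 111 and 87.6 CPM of the ESC sums. The part of these markers in the results was not tested. Medium and state cannot be told apart.

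Further genes of the same pathways were read from lists of their own. Their counts stand beside the 14.5% of all genes that fell and the 14.3% that rose. Of 31 other hypoxia targets tested, 12 fell and 1 rose (Plod1, a collagen-modifying hydroxylase, 1.15). They included Ak4, a mitochondrial adenylate kinase (-2.54), Hif3a, another HIF alpha subunit (-1.67), and Narf (-1.19). Among 21 other genes of glycolysis and gluconeogenesis, 8 fell and 5 rose. Here the liver pyruvate kinase Pklr fell (-2.50), as did Tigar, which lowers the same phosphofructokinase activator that Pfkfb3 makes (-1.38), whereas the hexokinase-like Hkdc1 rose (3.07) at a level of 0.667 and 1.13 CPM in T09-treated and untreated EPSC. Pyruvate entry to mitochondria (2 rose, 1 fell of 12) and the pentose phosphate route (1 rose, 4 fell of 9) were also read. Among genes of pyruvate entry, the pyruvate dehydrogenase phosphatase Pdp2 fell (-1.44) and the kinase Pdk4 rose (1.14).

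The next comparison asked what T09 did to the set. In the fit of state plus treatment, 0 of 35 members passed for T09, where 0.104% of 14477 genes did. The lowest adjusted p was 0.452, and DESeq2 and limma-voom called 0 as well. In the same edgeR fit, 4 of 35 members and 879 of 14477 genes had an unadjusted p under 0.05. All 15 enzymes tested had a log2 change above 0, with a median of 0.20, and the medians of the other groups ran from -0.08 to 0.19. That fit gives both states 1 common response, and a response that differs between them can be read only from single pairs.

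The pairs ran in opposite directions for part of the set. With T09 in EPSC, 7 of 36 members were past 2-fold lower and 0 higher, where 3.29% of 13632 genes were lower and 0.895% higher. With T09 in ESC, 6 of 35 were past 2-fold higher and 0 lower, where 1.39% of 13412 genes were higher and 2.53% lower. Of the 35 members tested in both, 22 had a ratio below 1 in EPSC and above 1 in ESC, and 11 were above 1 in both. Opposite ratios were not counted over all genes, so whether they are particular to this set is not known. Whether the states differ could not be tested, because that difference is the only residual of the fit.

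Past 2-fold in both pairs were 5 members, each lower in EPSC and higher in ESC. Egln3 had 2.00 CPM in T09-treated EPSC against 9.45 CPM in untreated EPSC, and 10.4 CPM in T09-treated ESC against 4.79 CPM in untreated ESC. Its log2 ratios were -2.21 (-2.61 to -1.89) in EPSC and 1.10 (0.84 to 1.39) in ESC, with 95% counting intervals in parentheses. Ndrg1, a growth-arrest gene used as a hypoxia marker, had 5.9 CPM in T09-treated EPSC against 18.9 CPM in untreated EPSC, and 22.9 CPM in T09-treated ESC against 10.4 CPM in untreated ESC. Its log2 ratios were -1.67 (-1.89 to -1.46) and 1.13 (0.95 to 1.32). Bnip3 had 12.1 CPM in T09-treated EPSC against 30.8 CPM in untreated EPSC, and 74.4 CPM in T09-treated ESC against 34.2 CPM in untreated ESC, with ratios of -1.35 (-1.50 to -1.20) and 1.12 (1.02 to 1.22). In all 3 genes the T09-treated library was the lower one in EPSC and the higher one in ESC. Ndufa4l2 had 1.11 CPM in T09-treated EPSC against 2.91 CPM in untreated EPSC, and 12.1 CPM in T09-treated ESC against 3.13 CPM in untreated ESC, with ratios of -1.35 (-1.92 to -0.87) and 1.92 (1.63 to 2.27). Slc16a3 had 15.9 CPM in T09-treated EPSC against 37.9 CPM in untreated EPSC, and 197 CPM in T09-treated ESC against 93.1 CPM in untreated ESC, with ratios of -1.25 (-1.39 to -1.12) and 1.08 (1.02 to 1.14). For each of the 5, T09-treated EPSC was the lowest of these 4 libraries and T09-treated ESC the highest.

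Of the 15 enzymes 0 were past 2-fold with T09 in EPSC. Their median log2 ratio there was -0.09, and that of the 8 targets was -1.01. With T09 in ESC all 15 were above 0 with a median of 0.42, and Aldoc, the brain aldolase, was the 1 past 2-fold (1.71, at 25.7 CPM with T09 and 7.81 CPM without). Pfkfb3 was also past 2-fold lower with T09 in EPSC, at -1.06 (-1.28 to -0.85), as was Adm, at 2 counts with T09 and 54 without. Immediate-early genes also differed between these libraries. Egr1 had 3.04 CPM in T09-treated EPSC against 72.2 CPM in untreated EPSC, and 89.9 CPM in T09-treated ESC against 0.362 CPM in untreated ESC. Fos had 1.26 CPM in T09-treated EPSC against 28.7 CPM in untreated EPSC, and 22.5 CPM in T09-treated ESC against 0.543 CPM in untreated ESC. The fibroblast marker sum was 10.6 CPM against 27.2 CPM with and without T09 in EPSC, and 24.6 CPM against 19.98 CPM with and without T09 in ESC, with 2 to 3 of its 8 genes at 0 counts in each. Acta2 alone stood at 6.35 CPM against 19.3 CPM with and without T09 in EPSC, and Pdgfrb at 19.1 CPM against 14.4 CPM with and without T09 in ESC, which is most of these sums. The part of either in these differences was not tested.

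**Figure D3:**
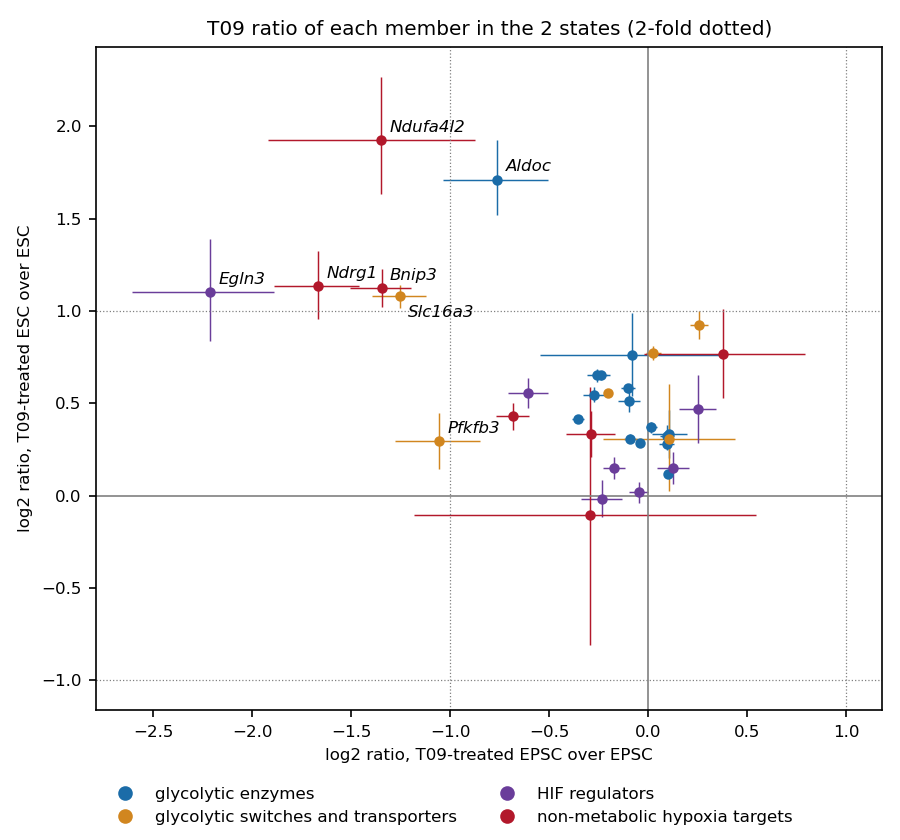
Log2 ratio of T09-treated over untreated libraries in EPSC (horizontal axis) and ESC (vertical axis) for the 35 members tested in both pairs, coloured by role, with 95% counting intervals as bars and dotted lines at 2-fold. Egln3, Ndrg1, Bnip3, Ndufa4l2 and Slc16a3 lie in the upper left, beyond 2-fold on both axes, and the enzymes gather near 0 on the horizontal axis and above 0 on the vertical one.

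A further comparison followed the set as EPSC became blastoids. In day 2 blastoids over EPSC, 8 of 36 members rose and 9 fell, where 19.2% of 15812 genes rose and 18.2% fell. In day 5 blastoids over EPSC, 19 rose and 4 fell, where 30.3% rose and 28.2% fell. In day 5 over day 2 blastoids, 21 rose and 0 fell, where 25.6% rose and 23.4% fell. By role, 6 of 15 enzymes rose and 4 fell at day 2 over EPSC, with a median log2 change of 0.10. Of the 8 targets, 0 rose and 1 fell there, with a median of -0.84. At day 5 over day 2, 9 of 15 enzymes and 6 of 8 targets rose and 0 of either fell. The difference between role groups was not tested. The comparisons with EPSC share the EPSC libraries. Day 2 libraries were transfected and day 5 libraries are labelled as coming from T09-treated EPSC, so stage and these treatments cannot be told apart.

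Ldha had 362 and 463 CPM in T09-treated and untreated EPSC, 1165 and 1265 CPM in siNr1h2 and siNT day 2 blastoids, and 2122 and 2395 CPM in Type I and Type III day 5 blastoids. Each stage lay above the one before, with log2 changes of 1.60 at day 2 over EPSC (SE 0.167, adjusted p = 5.27e-05) and 0.89 at day 5 over day 2 (SE 0.164, adjusted p = 0.00146). Tpi1 had 174 and 205 CPM in T09-treated and untreated EPSC, 335 and 369 CPM in siNr1h2 and siNT day 2 blastoids, and 1209 and 1340.2 CPM in Type I and Type III day 5 blastoids, a log2 change of 2.78 at day 5 over EPSC (SE 0.199, adjusted p = 1.34e-06). Pgk1, the first enzyme of glycolysis to yield ATP, had 329 and 353 CPM in T09-treated and untreated EPSC. It had 543 and 576 CPM in siNr1h2 and siNT day 2 blastoids, and 1004 and 1519 CPM in Type I and Type III. Pfkl, the liver phosphofructokinase, had 117 and 141 CPM, 266 and 295 CPM, and 592 and 495 CPM in the same order. Aldoa and Eno2 also rose in both blastoid stages over EPSC, and Aldoc rose at day 5 alone, by 2.06 over day 2. Gapdh, Pgam1 and Pfkm passed in none of the 3 contrasts.

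A second group of enzymes fell when EPSC became blastoids. Hk1 had 133 and 142 CPM in T09-treated and untreated EPSC, 22.8 and 24.4 CPM in siNr1h2 and siNT day 2 blastoids, and 38.3 and 35.0 CPM in Type I and Type III day 5 blastoids (log2 change -2.50, SE 0.165, adjusted p = 2.41e-06 at day 2 over EPSC). Hk2 had 372 and 396 CPM in T09-treated and untreated EPSC, 142 and 139 CPM in siNr1h2 and siNT day 2 blastoids, and 136 and 171 CPM in Type I and Type III day 5 blastoids (log2 change -1.41, SE 0.14, adjusted p = 3.63e-05 at day 2 over EPSC). Ldhb had 368 and 344 CPM in T09-treated and untreated EPSC, 43.8 and 52.3 CPM in siNr1h2 and siNT day 2 blastoids, and 68.1 and 85.8 CPM in Type I and Type III day 5 blastoids (log2 change -2.85, SE 0.159, adjusted p = 8.04e-07 at day 2 over EPSC). Pfkp had 153 and 183 CPM in T09-treated and untreated EPSC, 82.1 and 83.7 CPM in siNr1h2 and siNT day 2 blastoids, and 33.3 and 82.1 CPM in Type I and Type III day 5 blastoids. In these 4 genes all blastoid libraries lay below both EPSC libraries, and at day 5 over day 2 Hk1 (0.63) and Ldhb (0.67) rose again in part. Per length, Ldha stood at 18.3 and 16.6 times Ldhb in siNr1h2 and siNT day 2 blastoids and at 21.4 and 19.2 times in Type I and Type III day 5 blastoids, against values below 1 in EPSC. The ratio of Pfkl to Pfkp per length was 0.883 and 0.891 in T09-treated and untreated EPSC, 3.73 and 4.06 in siNr1h2 and siNT day 2 blastoids, and 20.5 and 6.95 in Type I and Type III day 5 blastoids.

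Both glucose transporters ended higher. Slc2a1 had 300.3 and 295 CPM in T09-treated and untreated EPSC, 188 and 183 CPM in siNr1h2 and siNT day 2 blastoids, and 662 and 579 CPM in Type I and Type III day 5 blastoids. It fell at day 2 over EPSC (-0.64) and rose at day 5 over day 2 (log2 change 1.73, SE 0.207, adjusted p = 0.000106). Slc2a3 had 1160.5 and 1338 CPM in T09-treated and untreated EPSC, 1757 and 1839.5 CPM in siNr1h2 and siNT day 2 blastoids, and 4739 and 4004 CPM in Type I and Type III day 5 blastoids, and rose in all 3 contrasts, by 1.84 at day 5 over EPSC (SE 0.183, adjusted p = 1.34e-05). Slc16a3 had 15.9 and 37.9 CPM in T09-treated and untreated EPSC, 88.8 and 100.4 CPM in siNr1h2 and siNT day 2 blastoids, and 124 and 189 CPM in Type I and Type III day 5 blastoids, with 1.86 at day 2 over EPSC (SE 0.408, adjusted p = 0.00531) and no call between day 5 and day 2 (0.72). Pfkfb3 rose at day 5 over EPSC (1.50). Pdk1 and Pfkfb4 passed in none of the contrasts.

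Epas1, a HIF regulator, had the widest range over the 8 libraries of all members with at least 100 counts in 1 of them. It had 51.4 and 43.3 CPM in T09-treated and untreated EPSC, 12.9 and 10.7 CPM in siNr1h2 and siNT day 2 blastoids, and 351 and 175 CPM in Type I and Type III day 5 blastoids. It fell at day 2 over EPSC (log2 change -1.97, SE 0.297, adjusted p = 0.000609) and rose at day 5 over day 2 (log2 change 4.47, SE 0.323, adjusted p = 7.75e-06). Per length, Epas1 was 1.88 and 1.09 times Hif1a in Type I and Type III blastoids, and between 0.056 and 0.281 times in the 6 other libraries. Hif1a itself had 181 and 187 CPM in T09-treated and untreated EPSC, and 191 and 189 CPM in siNr1h2 and siNT day 2 blastoids. In Type I and Type III day 5 blastoids it had 184 and 159 CPM. Hif1a passed in no contrast, nor did Arnt and Egln2. Under alternatives Arnt was lower at day 5 over EPSC with library totals (-0.39), no filter (-0.35), limma-voom (-0.32) and without Type I (-0.50), and Hif1a was lower at day 5 over day 2 with library totals (-0.29) and without Type I (-0.28). Egln1 had 32.5 and 49.6 CPM in T09-treated and untreated EPSC, 24.1 and 24.9 CPM in siNr1h2 and siNT day 2 blastoids, and 98.0 and 107 CPM in Type I and Type III day 5 blastoids, lower at day 2 (-0.70) and higher at day 5 over day 2 (log2 change 2.05, SE 0.216, adjusted p = 5.12e-05). Egln3 rose at day 5 over EPSC (log2 change 2.70, SE 0.61, adjusted p = 0.00335), with 22.6 and 49.98 CPM in Type I and Type III blastoids. Vhl fell at day 2 over EPSC (-0.68) and rose at day 5 over day 2 (0.61).

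Most of the non-metabolic targets rose at day 5 over EPSC and over day 2. Over all libraries, however, Ankrd37 (11.4 CPM) and Ndufa4l2 (12.1 CPM) were highest in T09-treated ESC, and Car9 (1.12 CPM) in untreated ESC. Bnip3 had 12.1 and 30.8 CPM in T09-treated and untreated EPSC, 33.3 and 34.5 CPM in siNr1h2 and siNT day 2 blastoids, and 264 and 322 CPM in Type I and Type III day 5 blastoids. Both day 5 libraries lay above the other 6, and it rose by 3.10 over day 2 (SE 0.42, adjusted p = 0.000228). With no low-count filter Bnip3 also passed as higher at day 2 over EPSC (0.66). Ndrg1 had 5.9 and 18.9 CPM in T09-treated and untreated EPSC, 8.16 and 9.35 CPM in siNr1h2 and siNT day 2 blastoids, and 62.4 and 82.0 CPM in Type I and Type III day 5 blastoids and rose by 3.03 over day 2 (SE 0.489, adjusted p = 0.000649). Vegfa had 48.9 and 78.5 CPM in T09-treated and untreated EPSC, 26.0 and 26.7 CPM in siNr1h2 and siNT day 2 blastoids, and 133 and 134 CPM in Type I and Type III day 5 blastoids, with log2 changes of -1.23 at day 2 over EPSC and 2.33 at day 5 over day 2 (adjusted p = 0.00118 and 2.33e-05). Ankrd37, Mxi1 and Adm also rose at day 5 over day 2, by 0.85, 0.72 and 3.55. Ndufa4l2 was at 0.418 and 4.59 CPM in Type I and Type III blastoids and did not pass, nor did Car9.

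The day 2 count was sensitive to single libraries. It was 17 with all libraries, 11 without siNr1h2, 9 without siNT, 12 without T09-treated EPSC and 13 without untreated EPSC. Without any 1 of these 4 libraries the day 2 call was lost by Aldoa (0.27 to 0.42), Pgk1 (0.70 to 0.80), Pfkp (-1.10 to -0.85), Slc2a1 (-0.67 to -0.62) and Slc2a3 (0.47 to 0.67). Eno2 lost it without T09-treated EPSC, untreated EPSC or siNT (1.02 to 1.23), Egln1 without untreated EPSC, siNr1h2 or siNT (-0.73 to -0.37), and Vhl without siNT (-0.64). With T09-treated EPSC alone as the base, Egln3 (2.81), Bnip3 (1.52) and Pfkfb3 (1.18) passed at day 2. At day 5 over EPSC the count stayed between 23 and 24 without any 1 library, and at day 5 over day 2 between 14 (without siNr1h2) and 26 (without Type I). In that contrast Hk1 (0.58), Ldhb (0.55), Gpi1 (0.41) and Mxi1 (0.63) lost the call without siNr1h2, and Vhl (0.58) without siNT. Ankrd37 (0.68, 1.07 and 0.69), Adm (3.32, 3.93 and 3.04) and Pfkfb3 (1.03, 0.86 and 0.41) each lost it without siNr1h2, siNT and Type III in turn. Without Type I, Egln3 (1.85), Eno2 (0.98) and Ndufa4l2 (3.05) passed as higher and Hif1a (-0.28) and Arnt (-0.33) as lower. Without Type III, Pfkp (-1.31) and Pdk1 (-0.74) passed as lower.

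The same lists were read across stages, beside the shares of all genes given above (30.3% higher and 28.2% lower at day 5 over EPSC). Other hypoxia targets, a list of 32 genes, gave 6 higher and 10 lower at day 2 over EPSC, 17 higher and 3 lower at day 5 over EPSC, and 21 higher and 3 lower at day 5 over day 2. The largest day 5 changes over EPSC were in genes that build or cross-link collagen, Loxl2 (5.15), P4ha1 (4.51) and Plod2 (3.89), and in the carbonic anhydrase Car12 (3.65). Other genes of glycolysis and gluconeogenesis gave 11 higher and 8 lower of 25 at day 5 over EPSC. Hkdc1 had 0.667 and 1.13 CPM in T09-treated and untreated EPSC, 7.4 and 7.11 CPM in siNr1h2 and siNT day 2 blastoids, and 162 and 121 CPM in Type I and Type III day 5 blastoids (log2 change 7.34, SE 0.255, adjusted p = 1.8e-08 at day 5 over EPSC). The list of pyruvate entry to mitochondria also holds kinases that hold pyruvate back. Of its 12 genes, 1 was higher and 8 lower at day 5 over EPSC. The lower ones included the kinase Pdk4 (-3.84) and the pyruvate carrier subunit Mpc1 (-1.27), and the higher one was the kinase Pdk2 (1.03). These counts therefore give no direction for pyruvate entry. The pentose phosphate route gave 5 higher and 3 lower of 9.

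Cell type markers moved along with stage. Summed pluripotency markers were 5260.4 and 4892 CPM in T09-treated and untreated EPSC, 2475 and 2549.8 CPM in siNr1h2 and siNT day 2 blastoids, and 669.9 and 1433 CPM in Type I and Type III day 5 blastoids. Trophectoderm markers summed to 120.5 and 97.6 CPM, 257 and 266 CPM, and 1391 and 1550.0 CPM in the same order, with 8 of 9 above 1 CPM at day 5 and Elf5 at 0 counts in both EPSC libraries. The keratins Krt8 (717 and 754 CPM in Type I and Type III) and Krt18 (553 and 648 CPM) made most of the day 5 sums. At day 5 over day 2, 3 of 8 tested trophectoderm markers rose and 2 fell. Tfap2c, Eomes and Gata3 had lower values in both day 5 libraries than in either day 2 library. Of 6 mesoderm genes, 5 rose and 0 fell at day 5 over EPSC, and 1 rose and 1 fell at day 5 over day 2. Among them, T had 0.346 and 0.157 CPM in T09-treated and untreated EPSC, and 24.7 and 46.5 CPM in Type I and Type III. All 8 primitive endoderm markers were above 1 CPM in every blastoid library. The part of these markers in the values of the set was not tested.

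**Figure D4:**
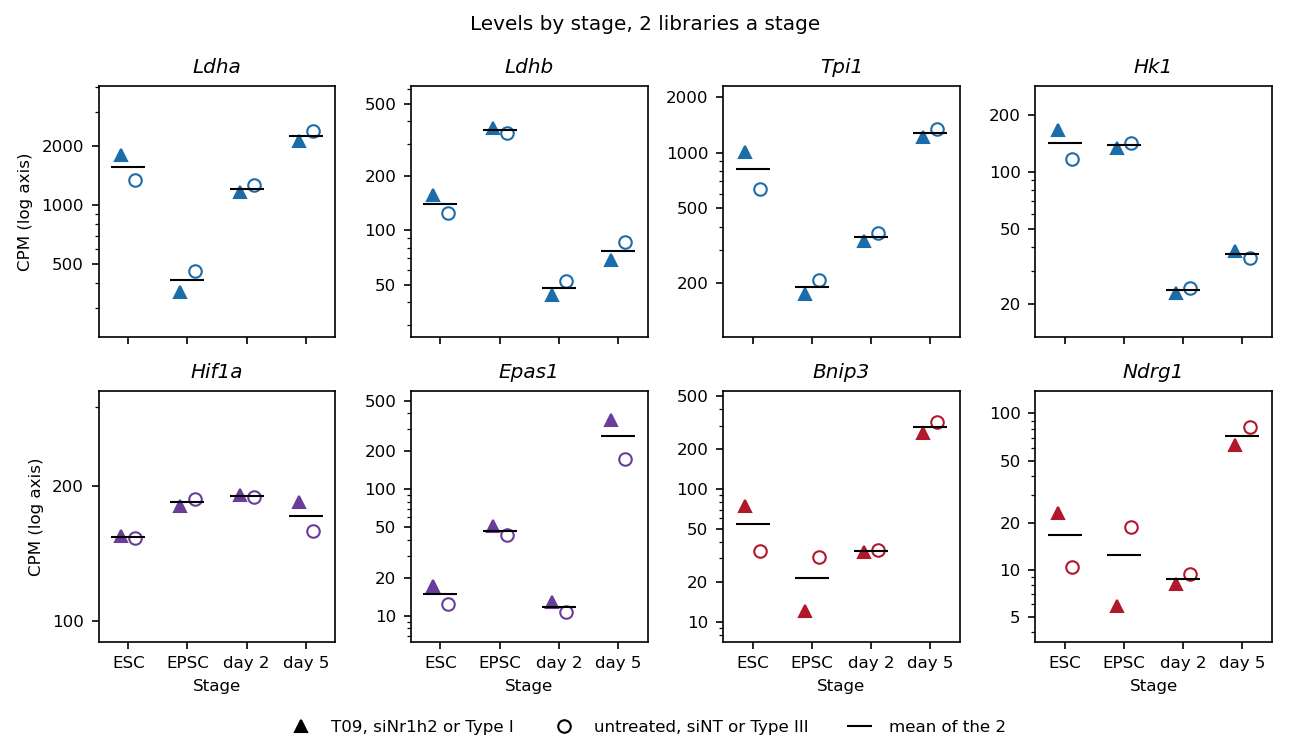
Level in CPM (log axis) of 8 members in the libraries of the 4 stages, with a horizontal line at the mean of the 2 libraries of a stage. Triangles are T09-treated ESC and EPSC, siNr1h2 and Type I, and circles are untreated ESC and EPSC, siNT and Type III. Ldha and Tpi1 are lowest in EPSC, Ldhb is highest there, and Bnip3 and Epas1 are highest at day 5.

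The last comparisons were between blastoids of one age. Nr1h2 itself stood at 37.7 CPM in siNr1h2 blastoids and 53.9 CPM in siNT blastoids. Of 34 members tested, 0 were past 2-fold in either direction in this pair, where 1.49% of 14127 genes were higher and 2.17% lower. Their log2 ratios ran from -0.46 (Aldoc) to 0.27 (Epas1), with medians of -0.12 over enzymes and -0.19 over targets. The Nr1h2 mRNA that remained and the lack of replicates limit this pair, and smaller differences cannot be judged.

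Between the day 5 types, Type I over Type III, 1 of 35 members was past 2-fold higher and 3 lower, where 1.93% of 13907 genes were higher and 5.75% lower. Epas1 had 351 CPM in Type I and 175 CPM in Type III blastoids, a log2 ratio of 1.00 (0.96 to 1.05) that lies at the 2-fold limit and did not pass it with library totals as the scaling. Egln3 had 22.6 and 49.98 CPM in Type I and Type III (-1.14 (-1.27 to -1.02)), Pfkp 33.3 and 82.1 CPM (-1.30 (-1.40 to -1.20)), and Ndufa4l2 15 and 151 counts (-3.29 (-4.33 to -2.69)). The 3 were thus lower in Type I. Pfkfb3 (-0.94) and Pdk1 (-0.77) were also lower but did not reach 2-fold. Ldha (-0.17), Hif1a (0.22) and Bnip3 (-0.28) differed less. Primitive endoderm markers summed to 5222 CPM in Type I and 3531 CPM in Type III, and pluripotency markers to 669.9 and 1433 CPM. Their part in these ratios was not tested. The LXR target Abca1 had 207 CPM in Type I and 5.38 CPM in Type III, although both carry the same T09 label.

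**Figure D5:**
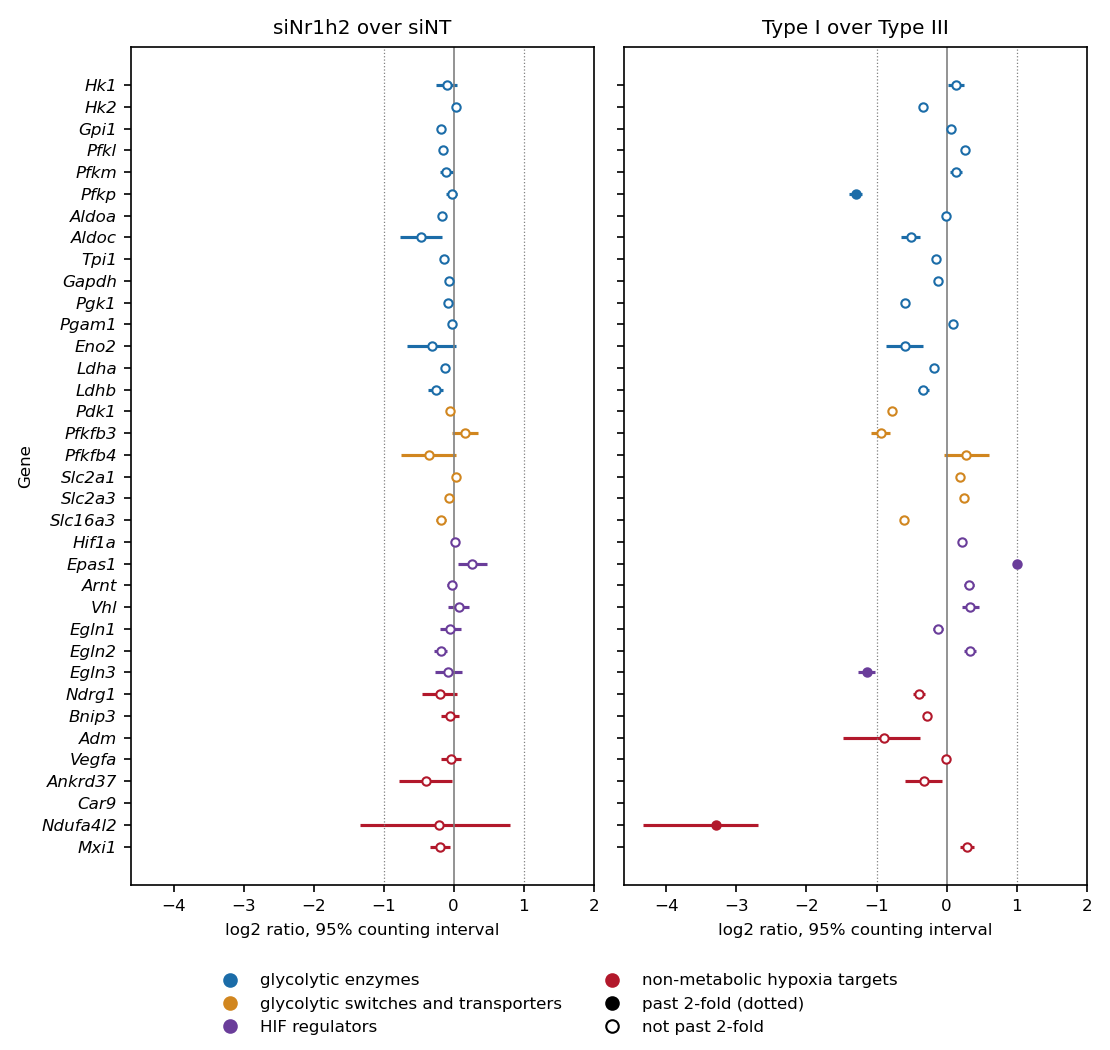
Log2 ratio of siNr1h2 over siNT (day 2) and of Type I over Type III (day 5) for the members tested, with 95% counting intervals as bars and dotted lines at 2-fold. All siNr1h2 ratios lie within 2-fold, though the interval of Ndufa4l2 does not. In the day 5 pair Epas1 reaches it upward, and Ndufa4l2, Pfkp and Egln3 pass it downward.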

How the data were processed

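The authors deposited whole-number counts for each gene symbol, with no normalization. The submitters' processing notes name HTSeq, STAR, Cuffnorm and build mm9. Versions, roles, annotation and strand setting are not given in the sources used here, so reads of overlapping or antisense genes may be pooled. Per the labels' protocols, libraries were directional and came from DNase-treated total RNA.

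Counts were scaled by TMM in edgeR 4.0.16 (R 4.3.3, limma 3.58.1, DESeq2 1.42.0) and are shown as CPM. A count of 0 allows up to 0.0741 to 0.114 CPM (3 counts). The labels name no molecular identifiers, so these floors and all intervals describe counting error alone. ESC and EPSC entered a quasi-likelihood fit of state plus T09 (1 residual degree of freedom). All 8 libraries entered a one-way fit of 4 stages (4 residual degrees of freedom). Both used filterByExpr and Benjamini-Hochberg adjustment over all genes, with a threshold of 0.05, and the SE is the size of the log2 change over the square root of F. Ratios of 2 libraries used a prior count of 2 and exact conditional (Clopper-Pearson) intervals. Levels per length used GENCODE M21 exon lengths. Both procedures were run on simulated data. The fits were given dispersions estimated from these libraries and the ratios counting error alone, so neither run covers variation between cultures. Python 3.11.15 searched the RefSeq promoters.

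The members and lists were chosen with earlier results of these data known. Named members were, per role group, up to 6 with the widest range over the libraries and at least 100 counts in 1 of them, plus the 3 with the largest EPSC over ESC change among those that passed. Up to 4 passing genes were named per other list, and some are not reported here. Aldoc, Pgk1, Pfkl, Hif1a, Adm, Car9, Gapdh, Slc16a1, Egr1, Fos, Mpc1 and others outside the rule were named after their values were seen. Alternatives were DESeq2-type (RLE) size factors, library totals, no filter or count minimum, a minimum of 100, a prior count of 10, DESeq2, limma-voom, the one-way fit for EPSC over ESC, and leaving out each library.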

Additional observations from a re-analysis of the deposited data

Results flagged for a closer look

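T09 ratios of 5 members were past 2-fold in opposite directions in the 2 states, with 1 library on each side, and the difference between the states was not tested. The share of all genes that did the same was not counted. Log2 ratios of T09-treated over untreated cells are given for EPSC and then for ESC. They were -2.21 and 1.10 for Egln3, -1.67 and 1.13 for Ndrg1, -1.35 and 1.12 for Bnip3, -1.35 and 1.92 for Ndufa4l2, and -1.25 and 1.08 for Slc16a3. Egln3 is a regulator, Slc16a3 a lactate exporter and the other 3 are targets, and none is a glycolytic enzyme.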

How the results depend on the processing

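No called result changed direction under any alternative. Among values that were not called, 61 changed sign, 54 from the fits and 7 of the 2-library ratios, and 5 of them moved by over 1 on the log2 scale. These were Adm (-2.21, then 1.56) and Ndrg1 (-0.45, then 0.61) at day 2 over EPSC without untreated EPSC, and, without Type III, Ndufa4l2 at day 5 over EPSC (0.34, then -2.21) and over day 2 (2.17, then -0.38) and Car9 at day 5 over day 2 (0.38, then -0.66). The count of members called in EPSC over ESC was 20, and 16 (DESeq2) to 23 (no filter) under the alternatives. That of T09 stayed 0 under each alternative. For day 2 over EPSC it was 17, and it ran from 9 (without siNT) through 11 (without siNr1h2) to 19 when 1 library was left out. In the one-way fit, chosen after the data were seen for EPSC over ESC without 1 library, that count ran from 16 to 22. Of the single results from the fits, 1819 kept their side of the threshold, 66 lost it and 44 gained it. Of the 2-library ratios, 1043 kept it, 1 lost it (Epas1 in Type I over Type III, library totals) and 2 gained it. Scaling by TMM and by library totals was compared through the mean log2 scaling factors of the sides of a contrast. The difference was over 0.1 in 1 contrast, day 5 over day 2 (-0.14). Leaving 1 library out of the fit of state plus treatment leaves no residual degree of freedom. No paired analysis was possible because the labels carry no replicate numbers and each group is 1 library. Depth limits Adm, Car9, Ndufa4l2 and Eno2.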

Other observations

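Slc16a1, a proton-linked carrier of lactate and pyruvate outside the set, had 166 and 159.8 CPM in T09-treated and untreated EPSC, 337 and 336 CPM in siNr1h2 and siNT day 2 blastoids, and 1332 and 1016 CPM in Type I and Type III day 5 blastoids. It rose at day 2 over EPSC (log2 change 1.09, SE 0.136, adjusted p = 0.00017) and at day 5 over day 2 (log2 change 1.80, SE 0.138, adjusted p = 1.02e-05), whereas EPSC over ESC did not pass (log2 change -0.29, adjusted p = 0.0591). The muscle pyruvate kinase Pkm fell in EPSC, with 1840.3 and 1970.4 CPM in T09-treated and untreated EPSC, against 4183 and 3462 CPM in T09-treated and untreated ESC (log2 change -1.01, SE 0.131, adjusted p = 0.000458). The muscle-type fructose bisphosphatase Fbp2, an enzyme of gluconeogenesis, had 9.02 and 13.6 CPM in T09-treated and untreated EPSC, 31.5 and 30.4 CPM in siNr1h2 and siNT day 2 blastoids, and 2.98 and 3.77 CPM in Type I and Type III day 5 blastoids. It fell at day 5 over day 2 (log2 change -3.20, SE 0.243, adjusted p = 9.68e-06).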
